A study of Homo sapiens with 6 samples.

Results

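The genes described here make cholesterol and fatty acids or govern that synthesis. They are a fixed list of 34 of the 62252 annotated genes measured, picked by gene name with earlier results of these data known, in 5 roles: 7 genes of early sterol synthesis, 10 of late sterol synthesis, 4 of SREBP control, 6 of cholesterol transport and 7 of fatty acid synthesis. Of the 34, 33 had a mean count above 10 over the 6 libraries and were among the 21045 genes tested. The remaining member, ABCG1, a cholesterol exporter, reached at most 4 counts in any library and could not be tested.

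Cholesterol is built from acetyl-CoA by way of mevalonate, farnesyl pyrophosphate, squalene and lanosterol, and fatty acids from the same acetyl-CoA by way of malonyl-CoA. Both pathways are under the control of the transcription factors SREBP-1 and SREBP-2, which SCAP escorts out of the endoplasmic reticulum when sterols are scarce and INSIG proteins hold back when sterols are plentiful. Several enzymes of both pathways need iron, among them the fatty acid desaturases, with a di-iron centre, and CYP51A1, with a heme.

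K562 cells derive from a human leukemia and have features of the red cell lineage. For these libraries a single clone with lox sites at the AAVS1 locus received, by cassette exchange, a construct with Flag-tagged PCBP1 under a promoter that doxycycline (Dox) switches on. PCBP1 binds C-rich RNA and also delivers iron to proteins, and the comparison asks what its overexpression does to the transcriptome. PolyA RNA was sequenced from 3 libraries without Dox (−Dox, labelled Control) and 3 with Dox (+Dox, labelled PCBP1 OE). Both groups carry the cassette, so that Dox and Flag-PCBP1 change together between the groups, and a line with Dox and no Flag-PCBP1 was not analysed here. The dose and time of Dox for these libraries are not given in the sources used here. Nor do the labels say whether replicates came from separate cultures, so that p-values measure the spread between these libraries, which may be technical.

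The libraries held 70905656 to 84177316 estimated counts, of which genes of the mitochondrial genome took 8.8% to 9.41%. PCBP1 itself had 20944, 20992 and 19936 counts in −Dox and 73062, 79189 and 84219 in +Dox. By edgeR this was a log2 fold change of 1.94 ± 0.055 (SE, adjusted p = 5.22e-10), so every library went with its label. Among the 8 listed markers of K562 cells, TAL1 (log2 fold change 0.44) and KLF1 (0.46) rose and TFRC fell by 0.34 on the log2 scale, and the summed level of the list was 19800 to 20700 TPM in −Dox and 19500 to 20000 TPM in +Dox. The 5 lymphocyte markers summed to 1.94 to 2.54 TPM in −Dox and 2.0 to 2.51 TPM in +Dox, with MS4A1 at 0 throughout. The 5 fibroblast markers summed to 0.648 to 0.729 TPM in −Dox and 0.364 to 0.852 TPM in +Dox, with LUM at 0 throughout. The part of this shift in red cell genes in the results below was not tested. In bulk RNA, fewer cells that express a gene and less RNA per cell cannot be told apart.

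When PCBP1 was overexpressed, no change of a member that passed the test reached a factor of 2. Adjusted p was under 0.05 for 7 of the 33 members tested: NPC2 and TM7SF2 were higher, and FADS1, FASN, INSIG1, ACACA and SQLE were lower (edgeR's quasi-likelihood test, two-sided, Benjamini-Hochberg adjustment over all 21045 genes). Leaving out +Dox replicate 1 left 2 lower members, and leaving out −Dox replicate 3 or +Dox replicate 2 left 3. The higher members were 6.06% of those tested, against 8.16% of all genes, and the lower members 15.2%, against 7.68% of all genes. Among the 14331 genes with a mean of at least 1 CPM (counts scaled to library size), which held 32 of the 33, 11.3% were higher and 10.7% lower. None of the members passed the further limit of an absolute log2 fold change above 1 that the study set for differential expression, against 1.46% of all genes, and DESeq2 also gave 0. At an unadjusted p under 0.05 there were 15 members, and none of these had a fold change above that limit. The share of all genes at this unadjusted limit was not counted, so the 15 cannot be called many or few.

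The typical change of a member was small. The median log2 fold change over the 33 was −0.05, beside 0.01 over all genes tested. The median absolute change was 0.10, beside 0.18 over all genes and 0.14 over genes with at least 1 CPM. For 26 members the absolute log2 fold change was under 0.2. In 7 of the 33 members every +Dox library lay above every −Dox library, and in 9 of the 33 every +Dox library lay below. Over all genes tested, the groups were apart in this way for 17.4% upward and 15.8% downward.

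**Figure D1:**
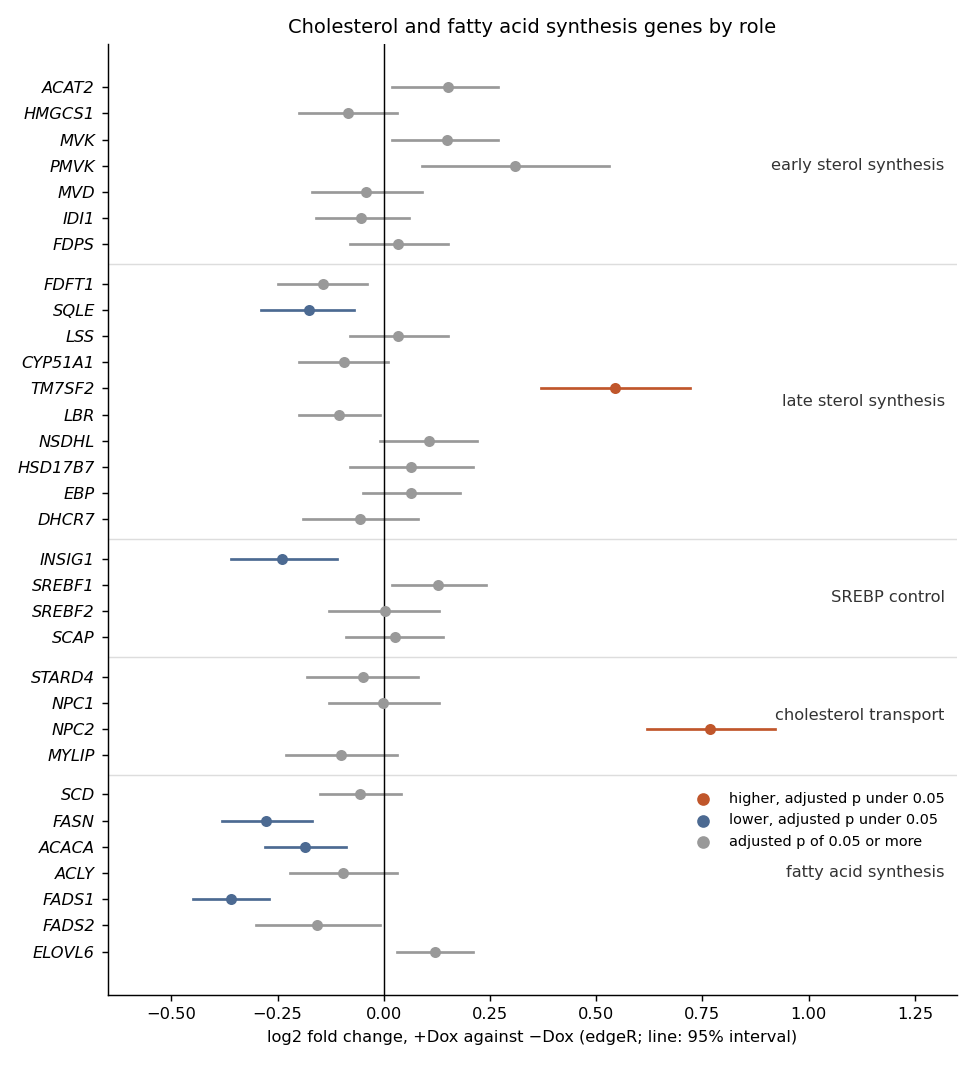
The log2 fold change of each tested member (horizontal axis, +Dox against −Dox, edgeR) is shown by role, with a line for its 95% interval, orange for higher and blue for lower at an adjusted p under 0.05 and grey for the others. ABCA1 (−1.27, from −2.55 to 0.01) lies off the axis and is left out. Most intervals lie within 0.4 of 0, and NPC2 and TM7SF2 stand to the right of all others.

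**Figure D2:**
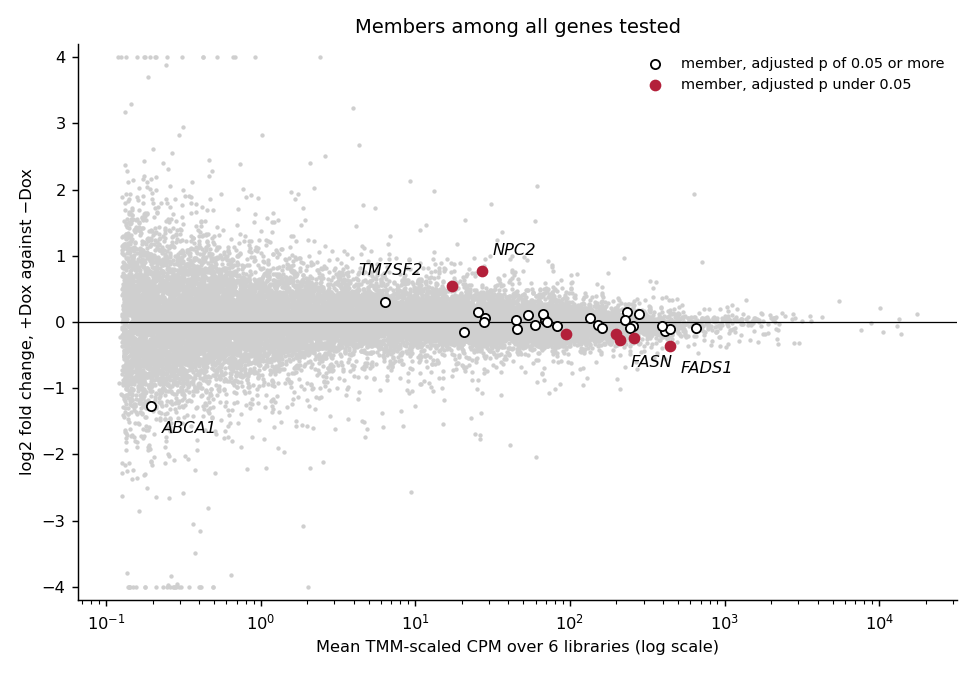
Each grey point is 1 of the 21045 genes tested, placed by its mean CPM over the 6 libraries (horizontal, log scale) and its log2 fold change (vertical, values beyond 4 drawn at 4), with the 33 members on top. Members lie mostly above 10 CPM and close to 0, apart from ABCA1 at the low end.

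Levels between genes are compared in TPM, which is scaled for transcript length. HMGCS1, the synthase that commits acetyl units to the mevalonate route, was the most abundant member (264.7 ± 6.92 TPM in −Dox and 235.7 ± 11.9 TPM in +Dox, SD, n = 3). FDPS, which makes farnesyl pyrophosphate, followed at 240.1 ± 13.3 and 247.0 ± 7.5 TPM, and FDFT1, the squalene synthase, at 241.9 ± 1.93 and 213.7 ± 4.94 TPM. These 3 lie close together, and their order differs between −Dox and +Dox. At the other end, PMVK stood at 6.70 ± 0.604 and 8.16 ± 0.594 TPM. The exporters ABCA1 and ABCG1 lay below all other members, at means of 0.018 and 0.012 TPM over the 6 libraries. K562 cells thus held abundant mRNA for sterol synthesis and next to none for the sterol exporters in either group.

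Fatty acid synthesis was the role with the most members called. Of its 7 members, 3 fell, 0 rose, and 6 had a fold change below 0. The 3 that fell were 42.9% of the role, beside 7.68% of all genes tested and 10.7% of those with at least 1 CPM. Of 26 genes of fatty acid supply and use in the further list below, 4 rose and 4 fell. The summed level of the 7 members was 383.3, 382.8 and 383.4 TPM in the −Dox libraries. It was 318.6, 335.2 and 324.1 TPM in the +Dox libraries, a mean of 14.9% less in +Dox. All 3 +Dox libraries lay below all 3 −Dox libraries in this sum. From −Dox to +Dox, FADS1 alone went from a mean of 124.0 to 93.8 TPM, and FASN from 41.77 to 30.67 TPM. ELOVL6 was at 70.55 ± 10.6 and 64.13 ± 1.58 TPM (SD, n = 3), although its mean CPM rose from 266.4 to 289.6. Its groups overlapped in TPM, and −Dox replicate 2 stood at 82.64 TPM. FADS2, at 11.57 ± 2.42 and 11.75 ± 1.88 TPM, also overlapped, so that no direction in TPM can be read for either gene.

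FADS1, the delta-5 desaturase of polyunsaturated fatty acids (ENSG00000149485.19, chromosome 11, 61799627 to 61829318, minus strand, GRCh38), had the strongest decrease of the members by adjusted p. It stood at 503.1, 492.5 and 504.7 CPM in −Dox and at 380.2, 387.0 and 402.5 CPM in +Dox, scaled by TMM. The groups did not overlap, and the lowest −Dox library was well above the highest +Dox library. The log2 fold change was −0.36 ± 0.043 (SE, edgeR adjusted p = 0.000159), which is 0.78 of the −Dox level on the CPM scale. FADS2, the delta-6 desaturase encoded next to it on the opposite strand, was at 20.89, 20.89 and 23.13 CPM in −Dox and 19.69, 18.46 and 20.10 CPM in +Dox. The FADS2 groups were also apart, but its log2 fold change of −0.16 did not pass (95% interval −0.30 to −0.01, adjusted p = 0.141 by edgeR) and was 0.07 with an offset for transcript length. Exons of the pair overlap over 4.79% of the exon bases of FADS1. The strand setting of the counting is not given in the sources used here, so that reads from the overlap cannot be assigned.

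FASN, the fatty acid synthase that builds palmitate (ENSG00000169710.9, chromosome 17, 82078338 to 82098294, minus strand), stood at 216.9, 234.9 and 240.0 CPM in −Dox and at 187.5, 193.9 and 190.0 CPM in +Dox. Again the groups did not overlap, and the +Dox libraries were close to one another. FASN fell by 0.28 on the log2 scale (SE 0.049, edgeR adjusted p = 0.00213), or 17.4% less, and by 0.41 (adjusted p = 0.00118) when transcript length was set as an offset. ACACA, the carboxylase that makes the malonyl-CoA FASN consumes (ENSG00000278540.5, chromosome 17, 37084992 to 37406836, minus strand), was at 101.8, 98.4 and 99.2 CPM in −Dox and at 86.2, 89.8 and 87.3 CPM in +Dox. Its 3 +Dox values lay below all −Dox values. The decrease of 0.19 on the log2 scale (SE 0.046, edgeR adjusted p = 0.0148) was no longer called without +Dox replicate 1 (adjusted p = 0.0556), without +Dox replicate 3 (0.0501) or with an offset for transcript length (log2 fold change −0.08, adjusted p = 0.497).

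The other fatty acid genes did not pass. ACLY, which splits citrate into acetyl-CoA, had a log2 fold change of −0.10 (95% interval −0.22 to 0.03), and SCD, the delta-9 desaturase that makes oleate, one of −0.06 (−0.15 to 0.04). For SCD, an abundant mRNA with means of 403.7 ± 7.4 and 388.7 ± 13.8 CPM in −Dox and +Dox (SD, n = 3), the interval leaves out a fall of the size seen for FADS1. ELOVL6, which lengthens palmitate, had 0.12 (0.03 to 0.21, adjusted p = 0.078 by edgeR), with the +Dox libraries above the −Dox libraries, and −0.11 with the length offset.

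**Figure D3:**
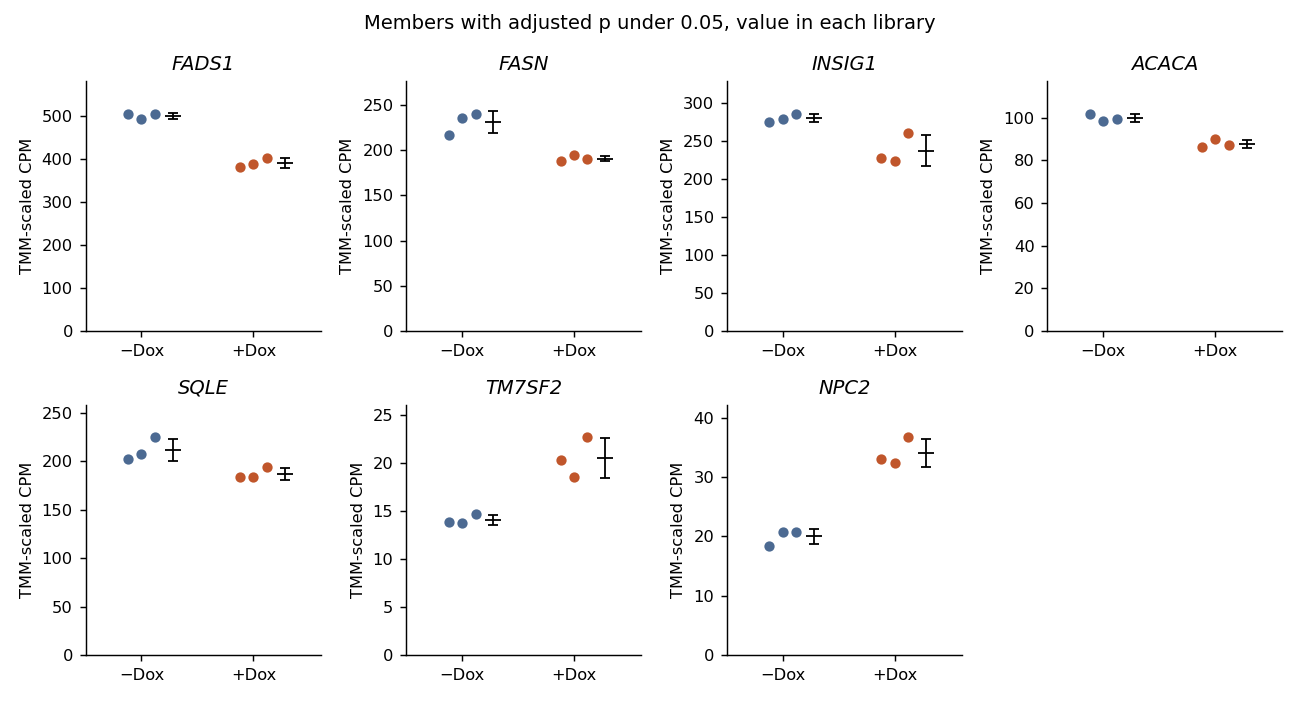
Each panel gives 1 of the 7 members with an adjusted p under 0.05, with the CPM of each library as a point (−Dox blue, +Dox orange, vertical axis from 0) and the mean with its SD (n = 3) as a bar to the right. The groups are apart in all 7 panels, from FADS1, 380.2 to 402.5 CPM in +Dox, to NPC2, 32.39 to 36.74 CPM in +Dox.

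Cholesterol transport held the largest increase. NPC2, a soluble lysosomal protein that binds cholesterol and hands it to the membrane protein NPC1 (ENSG00000119655.11, chromosome 14, 74476192 to 74494177, minus strand), was at 18.47, 20.72 and 20.84 CPM in −Dox and at 33.08, 32.39 and 36.74 CPM in +Dox. Every +Dox library was far above every −Dox library. NPC2 rose by 0.77 on the log2 scale (SE 0.069, edgeR adjusted p = 1.53e-05), or 70.2% more. Its partner NPC1 had means of 28.0 ± 1.57 and 27.98 ± 0.783 CPM in −Dox and +Dox (SD, n = 3), with a 95% interval of the log2 fold change from −0.13 to 0.13. That interval leaves out a change of the size seen for NPC2.

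STARD4, which carries sterol between membranes, had a log2 fold change of −0.05 (95% interval −0.18 to 0.08). MYLIP, the ligase that marks lipoprotein receptors for degradation, had −0.10 (−0.23 to 0.03). ABCA1, a cholesterol exporter, had only 26, 15 and 25 counts in −Dox and 10, 14 and 3 in +Dox. Its groups were apart, with +Dox below, but the log2 value of −1.27 carried a standard error of 0.591 and did not pass (edgeR adjusted p = 0.178). At this depth its interval, −2.55 to 0.01, holds both a large fall and almost none. Together the 6 transport members summed to 132.0, 129.9 and 134.5 TPM in −Dox and 134.2, 152.9 and 158.8 TPM in +Dox, where +Dox replicate 1 lay within the −Dox range.

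Early sterol synthesis, from acetyl-CoA to farnesyl pyrophosphate, gave no call. edgeR called 0 of 7 members at an adjusted p under 0.05, as did DESeq2, and 3 had an unadjusted p under 0.05, each of them with the +Dox libraries above the −Dox libraries. PMVK, the phosphomevalonate kinase, was at 5.31, 5.53 and 6.24 CPM in −Dox and at 6.74, 7.19 and 7.21 CPM in +Dox. Its log2 fold change was 0.31 (95% interval 0.09 to 0.53, adjusted p = 0.0599 by edgeR), and it was called without −Dox replicate 3 (0.38, adjusted p = 0.0463). ACAT2, the acetyl-CoA thiolase, had 0.15 (0.02 to 0.27), and MVK, the mevalonate kinase, 0.15 (0.02 to 0.27). The interval of the abundant ACAT2 thus left out 0. The other 4 members had intervals that spanned 0: HMGCS1 −0.20 to 0.03, IDI1, the isopentenyl isomerase, −0.16 to 0.06, FDPS −0.08 to 0.15, and MVD, the mevalonate decarboxylase, −0.17 to 0.09. A change of the size of FADS1 was outside each of these 4 intervals.

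In late sterol synthesis, from squalene to cholesterol, 1 of 10 members rose and 1 fell. TM7SF2, a sterol reductase of the endoplasmic reticulum (ENSG00000149809.17, chromosome 11, 65111845 to 65116384, plus strand), was at 13.78, 13.72 and 14.66 CPM in −Dox and at 20.32, 18.49 and 22.63 CPM in +Dox. The groups did not overlap, and +Dox replicate 3 was the highest. TM7SF2 rose by 0.54 on the log2 scale (SE 0.080, edgeR adjusted p = 0.000598), or 45.7% more. LBR, the lamin B receptor of the inner nuclear membrane, has the same reductase activity and was far more abundant, at 147.5 ± 2.95 TPM in −Dox and 131.1 ± 4.99 TPM in +Dox against 10.64 ± 0.401 and 14.43 ± 0.706 TPM for TM7SF2 (SD, n = 3). The LBR libraries were at 467.1, 461.4 and 458.6 CPM in −Dox and at 409.9, 435.6 and 444.0 CPM in +Dox, with all +Dox values lower. Its log2 fold change of −0.10 did not pass (95% interval −0.20 to −0.01, adjusted p = 0.145 by edgeR).

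SQLE, the squalene epoxidase and a slow step of the pathway, was at 202.8, 207.5 and 224.9 CPM in −Dox and at 184.1, 183.5 and 194.6 CPM in +Dox. The groups were apart by a narrow margin. SQLE fell by 0.18 on the log2 scale (SE 0.051, edgeR adjusted p = 0.0331). The call was lost without −Dox replicate 2 (adjusted p = 0.0624), −Dox replicate 3 (0.147), +Dox replicate 1 (0.104) or +Dox replicate 2 (0.102) and with the length offset (0.095). FDFT1, the step before it, was at 425.1, 442.8 and 436.8 CPM in −Dox and at 392.6, 372.4 and 417.0 CPM in +Dox, with all +Dox values lower. Its log2 fold change of −0.14 did not pass by edgeR (adjusted p = 0.0714) and did by DESeq2 (adjusted p = 0.0194) and without +Dox replicate 3 (−0.19, adjusted p = 0.0334).

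The other 6 late members had intervals that spanned 0. LSS, which closes lanosterol's rings, had a log2 fold change of 0.03 (−0.08 to 0.15), but 0.25 with the length offset (adjusted p = 0.0501 by edgeR). On the TPM scale its libraries were at 24.35, 26.64 and 27.23 in −Dox and 28.74, 32.03 and 30.04 in +Dox, without overlap. CYP51A1, the heme enzyme that demethylates lanosterol, had −0.09 (−0.20 to 0.01). NSDHL and HSD17B7, which act together in removing methyl groups, had 0.11 (−0.01 to 0.22) and 0.06 (−0.08 to 0.21). EBP, the sterol isomerase, had 0.07 (−0.05 to 0.18), and DHCR7, the last reductase before cholesterol, −0.06 (−0.19 to 0.08), or −0.15 with the length offset. Over both stages the 17 sterol members summed to 1698, 1689 and 1770 TPM in −Dox and 1601, 1643 and 1682 TPM in +Dox, 4.48% less on average, with +Dox replicate 3 just below the lowest −Dox library.

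**Figure D4:**
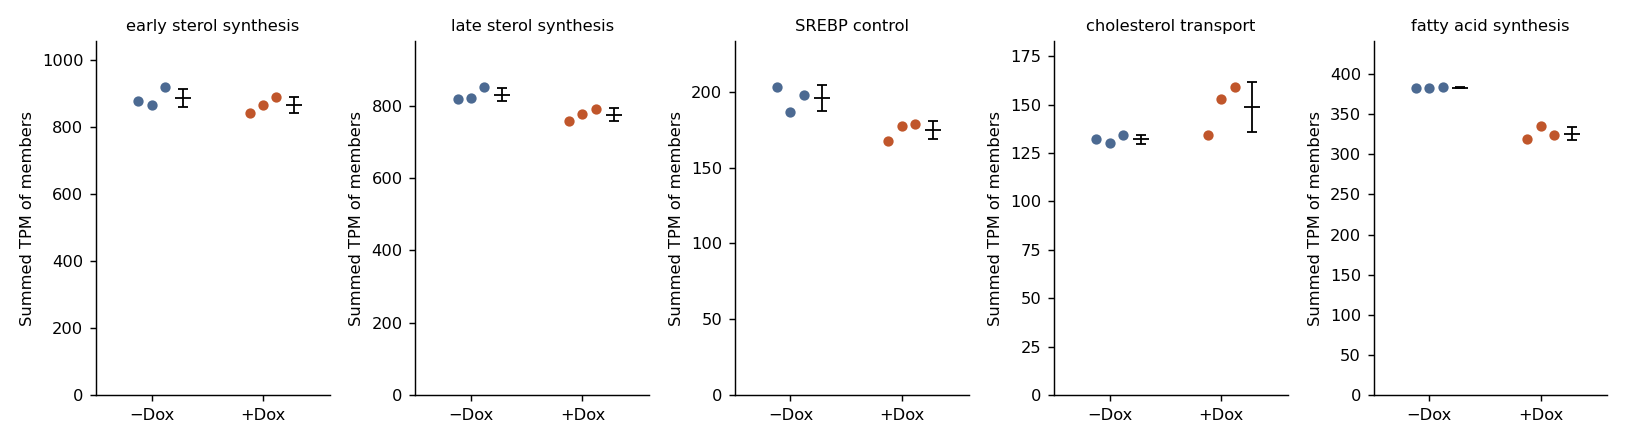
Each panel gives the summed TPM of the members of 1 role (vertical axis from 0) in each library, −Dox blue and +Dox orange, with the mean and SD (n = 3) to the right. Fatty acid synthesis (318.6 to 335.2 TPM in +Dox) lies below all −Dox libraries (382.8 to 383.4 TPM), while early sterol synthesis overlaps between the groups.

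Of the genes that control SREBP, INSIG1 fell and the rest did not pass. INSIG1, which holds SCAP in the endoplasmic reticulum and is itself an SREBP target (ENSG00000186480.13, chromosome 7, 155297776 to 155310235, plus strand), was at 275.3, 278.5 and 285.6 CPM in −Dox and at 227.4, 223.8 and 260.1 CPM in +Dox. The groups did not overlap, though +Dox replicate 3 stood closer to the −Dox libraries than the other two did. INSIG1 fell by 0.24 on the log2 scale (SE 0.057, edgeR adjusted p = 0.0128), or 15.3% less. The call was lost without −Dox replicate 3 (adjusted p = 0.0559), +Dox replicate 1 (0.0597) or +Dox replicate 2 (0.0537).

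SREBF1, which encodes SREBP-1, was at 61.44, 66.74 and 64.18 CPM in −Dox and at 71.58, 69.26 and 69.23 CPM in +Dox. All +Dox values were higher, yet the log2 fold change of 0.13 did not pass (95% interval 0.02 to 0.24, adjusted p = 0.113 by edgeR). SREBF2, which encodes SREBP-2, was at 66.37, 72.14 and 75.64 CPM in −Dox and at 70.28, 68.64 and 75.57 CPM in +Dox. These groups overlapped throughout, with a 95% interval from −0.13 to 0.13. SCAP was at 42.82, 43.52 and 46.26 CPM in −Dox and at 44.90, 44.84 and 45.35 CPM in +Dox, also overlapping (−0.09 to 0.14). SREBF2 and SCAP mRNA therefore differed by less than their spread.

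SREBP binds promoters beside NF-Y and Sp1, and the RefSeq set used here holds a promoter for 29 of the 34 members (GRCh38.p14). That set has none for ACAT2, FDFT1, SQLE, ABCG1 and FASN, so that SQLE and FASN, which fell, were not searched. The 250 bases before each start were searched on both strands for the SREBP core TCACNCCAC, the NF-Y box CCAAT and the Sp1 box GGGCGG. The SREBP core was found in 1 of the 29 members, SREBF2, and in 0.883% of all 35116 promoters and 1.09% of genes with a promoter. An NF-Y box was found in 19 of the 29 (65.5%), against 32.0% of all promoters and 37.0% of the 27305 genes with a promoter. A Sp1 box was found in 27 of the 29 (93.1%), against 42.6% of all promoters and 46.2% of genes. Some members have several promoters, and these shares also follow base composition. Among the called members with a promoter, an NF-Y box was found in 2 of 3 that fell and in 2 of 2 that rose, and among the members not called in 15 of 24. A match is a description of the letters and not a binding site, and a site with other letters was not counted.

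The stretches below show the only member searched that has the SREBP core, the SREBP inhibitor that fell and the member with the largest increase. Capitals mark the SREBP core and NF-Y boxes, which read ATTGG on the strand shown, and no marked matches overlap. SREBF2 lies at chr22:41832855-41833104 on the plus strand, with the core starting 133 bases before the transcription start and the NF-Y box 106 bases before it. INSIG1 lies at chr7:155297628-155297775 on the plus strand, with an NF-Y box 170 bases before its start. NPC2 lies at chr14:74493609-74493762 on the minus strand, with a pair of NF-Y boxes 144 and 114 bases before the upstream of its starts. Another RefSeq promoter of NPC2, nearer to the gene, had no NF-Y box. Bases of the INSIG1 and NPC2 windows that fall in annotated exons of the gene are left out.
SREBF2: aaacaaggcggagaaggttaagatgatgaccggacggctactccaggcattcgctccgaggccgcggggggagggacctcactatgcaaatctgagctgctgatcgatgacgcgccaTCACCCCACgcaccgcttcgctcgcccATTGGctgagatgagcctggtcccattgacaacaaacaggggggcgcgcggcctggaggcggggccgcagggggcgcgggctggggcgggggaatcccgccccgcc
INSIG1: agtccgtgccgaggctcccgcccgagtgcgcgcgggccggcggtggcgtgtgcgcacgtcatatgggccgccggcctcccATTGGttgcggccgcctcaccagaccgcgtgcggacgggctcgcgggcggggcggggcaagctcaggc
NPC2: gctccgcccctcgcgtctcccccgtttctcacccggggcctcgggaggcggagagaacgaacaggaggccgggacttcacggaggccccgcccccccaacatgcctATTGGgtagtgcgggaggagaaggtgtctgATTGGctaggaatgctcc

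Most members have several transcripts, and single transcripts were measured with far less precision. The 34 genes have 385 annotated transcripts, of which 258 were tested among 86178, and 22 members had at least 2 transcripts with 10% or more of the TPM of the gene. By edgeR 1 of the 258 was higher and 0 were lower at an adjusted p under 0.05, against 0.129% and 0.0754% of all transcripts. At an unadjusted p under 0.05 there were 29, and the share of all transcripts at that limit was not counted. DESeq2, which made many more false calls than edgeR on simulated transcripts, gave 8 higher and 9 lower. There edgeR recovered 0 of 50 transcripts changed by a factor of 1.5, 2 of 50 at 2, 4 of 50 at 4 and 14 of 50 at 16. A transcript without a call can therefore still have changed. The transcript called was NPC2-207, the canonical NPC2 mRNA of 821 bases, with 1477, 1532 and 1446 counts in −Dox and 2206, 2654 and 2781 in +Dox. Its groups were well apart (log2 fold change 0.80, adjusted p = 0.0394 by edgeR), but the call was lost without any 1 of the 6 libraries. NPC2-207 held 88.5% ± 2.67 of NPC2 TPM in −Dox and 87.7% ± 4.74 in +Dox (SD, n = 3), so that its share overlapped between the groups.

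FADS1-201, the main FADS1 mRNA with 84.3% of the TPM of the gene, was 0.33 lower on the log2 scale without passing (edgeR adjusted p = 0.0598). The canonical SREBF1-201 held only 10.8%, 11.9% and 11.6% of SREBF1 TPM in −Dox and 9.94%, 9.9% and 10.1% in +Dox. Short transcripts with a retained intron took similar shares, SREBF1-215 a mean of 13.8% and SREBF1-223 a mean of 11.7%. None of the SREBF1 transcripts passed, with log2 fold changes of −0.07, 0.49 and −0.18 for SREBF1-201, SREBF1-215 and SREBF1-223 (adjusted p = 0.815, 0.678 and 0.883 by edgeR). A short transcript also moved in share between libraries for FADS2. FADS2-212, of 360 bases, took 38.3%, 12.7% and 23.3% of FADS2 TPM in −Dox and 5.88%, 26.8% and 39.3% in +Dox, with no order between the groups. TPM weights a short transcript heavily, and the gene tests therefore rest on counts.

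Other annotated genes cover at least 5% of the exon bases of 10 members, none of them among the 7 called. The widest on the opposite strand was ENSG00000261604 over 37.7% of HMGCS1, with at most 1 count in a library. TCP1, a chaperonin subunit on the strand opposite ACAT2, covers 17.2% of its exon bases, and TCP1 fell by 0.23 on the log2 scale (adjusted p = 0.00273 by edgeR) while ACAT2 had 0.15. SOD2 covers 5.04% of ACAT2, RUSC1-AS1 18.6% of FDPS, IDI2-AS1 15.0% of IDI1, SREBF2-AS1 9.08% of SREBF2, RAI1 6.75% of SREBF1, RMC1 6.38% of NPC1 and ENSG00000228404 6.19% of LSS. On the same strand, ENSG00000285772 and ENSG00000289027 cover 68.2% and 67.8% of CYP51A1 and ENSG00000286268 covers 36.4% of EBP. How reads were split between these genes and the members is uncertain.

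A further 66 genes of the same pathways were listed by role, of which 64 were tested. Of these 6 rose (9.38%) and 9 fell (14.1%), beside the shares of 8.16% and 7.68% over all genes, and without any 1 library the count that fell was 4 or 5. FADS3, a desaturase encoded beside FADS1 and FADS2 that acts on sphingoid bases, was at 93.8, 102.9 and 107.1 CPM in −Dox and at 65.8, 67.7 and 65.6 CPM in +Dox. The groups were far apart, and FADS3 had the strongest decrease of either list by adjusted p (−0.61 on the log2 scale, SE 0.055, edgeR adjusted p = 1.58e-05). ELOVL5, which lengthens the products of the desaturases, fell by 0.22 on the log2 scale, from 260.3 to 223.4 CPM. In the other direction, ME1, which makes NADPH for synthesis, rose by 0.36, from 18.3 to 23.5 CPM.

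ELOVL7, an elongase of very long chains, rose by 0.33 on the log2 scale (from 18.1 to 22.7 CPM). DGAT2, which makes triglyceride, rose by 0.81 from 1.86 to 3.28 CPM but lost its call without +Dox replicate 3 (adjusted p = 0.0652). SCARB1, a lipoprotein receptor, rose by 0.23 and kept its call without each library in turn. Of the isoprenoid branch, NUS1, a subunit of the dolichol-making enzyme, fell by 0.21. RXRA, the partner of the sterol sensor LXR, rose by 0.30, and its call was lost without −Dox replicate 2 or any +Dox replicate (adjusted p of 0.0549 to 0.114). NFYA, a subunit of NF-Y, fell by 0.16, and its call was lost without every library but −Dox replicate 3 (0.0692 to 0.206).

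OSBP, which exchanges sterol between membranes, fell by 0.17, and its call was lost without any 1 of the 6 libraries (adjusted p of 0.0651 to 0.111 by edgeR). LRPAP1, a chaperone of lipoprotein receptors, fell by 0.21, with its call lost without −Dox replicates 2 or 3 or +Dox replicates 2 or 3 (0.0581 to 0.1). ACACB, ACSL4 and MCAT were also called, and are named here with their values already seen. ACACB, the mitochondrial counterpart of ACACA, rose by 0.88 (from 0.784 to 1.44 CPM), but by only 0.10 with the length offset, and its mean level per length was 0.598 TPM in −Dox and 0.590 TPM in +Dox. ACSL4, which activates polyunsaturated fatty acids, fell by 0.22, and MCAT, of mitochondrial fatty acid synthesis, fell by 0.28 (by 0.15 with the length offset). The ACSL4 call was lost without −Dox replicate 1 (0.0538) or +Dox replicate 1 (0.0898), the ACACB call without every library but −Dox replicate 3 (0.0621 to 0.149) and the MCAT call without every library but +Dox replicate 3 (0.0534 to 0.141). With the length offset the calls of ACACB, DGAT2, ELOVL7 and SCARB1, which rose, and of NFYA, OSBP, LRPAP1, ACSL4 and MCAT, which fell, were lost (0.0578 to 0.946).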

How the data were processed

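PolyA RNA of 6 libraries of K562 cells was sequenced by the authors in paired-end mode and quantified with Salmon 1.10.2. Per the labels the build was hg38. For each of 252045 transcripts the authors deposited an estimated count (expected count, not normalized) and a TPM value, which Salmon scales for effective length, per library and without pooling. The deposited effective lengths served only for a length offset. The index, strand and bias settings are not given in the sources used here. Salmon shares a read among the transcripts it fits, so that single transcripts are less certain than genes.

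Transcripts were matched to GENCODE 44 on GRCh38 without regard to version (251612 matched, and the 433 unmatched held at most 0.138% of counts). Estimated counts were summed per gene and rounded. The quasi-likelihood test of edgeR 4.0.16 with TMM (glmQLFit, then glmQLFTest, in R 4.3.3) was run on genes, and on transcripts, whose count averaged above 10, and calls were made at an adjusted p under 0.05 over all features. The study's limit of an absolute log2 fold change above 1 is given beside it. Standard errors come from the F statistic (log2 fold change over its root), and 95% intervals use the t quantile. An exact permutation test of 3 libraries against 3 has a smallest p of 0.1, so none is given. Libraries of 74766040 to 84177316 counts (−Dox) and 70905656 to 82449808 counts (+Dox) leave genes of a few counts with wide intervals. Replicates of a group differed by more than counting noise (chi-square of 8.16 to 17.5 per gene for pairs).

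Alternatives were DESeq2 1.42.0, RLE size factors, all features with any count, a replicate block, a transcript length offset and each library left out in turn. Replicate numbers did not pair the libraries, with correlations of deviations between −0.160 and 0.024 for the same number. Steps were tested on simulated data. Members and lists were chosen with earlier results of these data known. Genes are named by role, with each library's value for members called and the SREBP controls, and up to 5 called genes per role of the further list. LIPA and GRAMD1B of that list were not tested. Not every listed gene is reported here.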

Additional observations from a re-analysis of the deposited data

How the results depend on the processing

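NPC2, TM7SF2, FADS1 and FASN were called under all 11 alternatives. The count of higher members was 2 to 3 and that of lower members 2 to 5 when single libraries were left out, with 3 lower with the transcript length offset. In the further list, single libraries gave 3 to 6 higher and 4 to 5 lower genes, and the length offset 3 higher and 3 lower. For transcripts of members, single libraries gave 0 to 0 in either direction, and DESeq2, with its many false calls on simulated transcripts, 8 higher and 9 lower. With the replicate number as a block, which here pairs nothing, 3 members and 4 genes of the further list were lower and 0 transcripts higher, and ACACA (adjusted p = 0.0619) and SQLE (0.0739) were not called. Without single libraries FDFT1 and PMVK could gain a call, as given beside them. Of 48 genes compared, 32 had no change of call. Over single libraries left out, MVD ranged from −0.104 to 0.016, FDPS from −0.003 to 0.089, HSD17B7 from −0.014 to 0.105, DHCR7 from −0.105 to 0.015, SREBF2 from −0.049 to 0.046, STARD4 from −0.104 to 0.012 and NPC1 from −0.045 to 0.031. Directions turned in 19 cases, all for genes without a call. FADS2 and ELOVL6, which turned with the length offset, had intervals that left out 0. With RLE or DESeq2, SREBF2 had −0.005, and with any count −0.0008. With the length offset, SREBF2 had −0.015, SCAP −0.041, NPC1 0.006, FADS2 0.065 and ELOVL6 −0.106, and with the block NPC1 had 0.00026. The length offset shifts weight between long and short transcripts by construction, and its cause in single genes was not tested. Depth limits ABCA1 and ABCG1, whose counts were at most 26 in a library.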
